A study of Mus musculus with 12 samples.

Results

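Transcript levels of the serum response factor gene Srf, of its partner proteins and of the related Mef2 genes were followed in the striatum of SRF mutant and control mice. The members were all probe sets annotated to exactly 1 of Srf, Elk1, Elk3, Elk4, Mrtfa (older symbol Mkl1), Mrtfb (Mkl2), Mef2a, Mef2c and Mef2d. That rule used names and no measured value, though the genes were chosen with earlier results of these data known. It gave 24 of the 22690 probe sets on the array, standing for 9 genes. The question set for these genes was whether the partners and relatives of SRF stood higher where Srf was low. Of the 24 probe sets, 14 of 7 genes were bright enough to be tested, with log2 signals over 4 on 3 or more of the 12 arrays of any group. The other 10, among them every probe set of Elk3 and Mrtfb, were not.

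The 4 groups were SRF mutants given cocaine, SRF mutants given saline, controls given cocaine and controls given saline, with 3 Affymetrix arrays each, 1 array for 1 biological replicate by the sample titles. All animals were female littermates 10 to 15 weeks old, caged singly, and their striatum with the nucleus accumbens was taken 1 hour after an intraperitoneal injection. The cocaine dose was 25 mg/kg; the treatment text of every sample gives cocaine, so that some animals received saline rests on the titles and the series design. The labels do not say what was changed in Srf, in which cells, or what alleles the mutants and controls carried. The sample descriptions give other groups than the titles; the titles were used, and Srf was low on all arrays titled mutant and high on all arrays titled control (at most 5.49 against at least 6.97 on the log2 scale).

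SRF is a DNA-binding protein of the MADS box family that binds the CArG box, an AT-rich core between CC and GG. It works with partners of 2 kinds: the ternary complex factors Elk1, Elk3 and Elk4, ETS proteins that the ERK kinases phosphorylate and that bind GGAA motifs beside the CArG box, and the myocardin-related factors Mrtfa and Mrtfb, which leave their binding to monomeric actin and enter the nucleus when actin polymerises. The MEF2 proteins share the MADS box with SRF, bind another AT-rich element, respond to calcium through calcineurin and class IIa histone deacetylases, and in striatal neurons are known from work on dendritic spines and cocaine.

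The sequences upstream of 3 genes are shown because they carry the called changes described below, and because the genes can be compared by the elements of the same protein families. They come from RefSeq, assembly GRCm38.p6. Capitals mark a CArG box or CCGGAA, an ETS core, searched on both strands. The Srf stretch ends at the base before the gene's start (chr17:46556163-46556302, minus strand), as do those of Elk4 (chr1:132007520-132007619, plus strand, the first of 3 starts) and Mef2c (chr13:83503934-83504033, plus strand, the first of 3 starts).
Srf: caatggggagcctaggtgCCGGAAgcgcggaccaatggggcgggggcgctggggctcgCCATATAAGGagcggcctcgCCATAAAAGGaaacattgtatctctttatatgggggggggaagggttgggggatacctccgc
Elk4: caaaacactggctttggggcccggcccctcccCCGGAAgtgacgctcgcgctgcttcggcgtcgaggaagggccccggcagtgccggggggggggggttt
Mef2c: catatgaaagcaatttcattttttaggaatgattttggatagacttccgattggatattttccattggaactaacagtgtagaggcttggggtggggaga
The Srf stretch held 2 CArG boxes, starting 82 and 62 bases before the start, and CCGGAA at 122 bases before it. The Elk4 stretch held CCGGAA at 68 bases before the start, and the Mef2c stretch held no match.

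All 9 genes had windows from 250 bases before to 50 bases after a start, 16 windows in all. Of these, 1 held a CArG box (Srf), 5 windows of 4 genes held CCGGAA (Srf, Elk4, Mrtfb and Mef2a), and 2 windows of 2 genes held a MEF2 element (Mef2a and Mrtfb). The Mrtfb matches to CCGGAA are 1 site seen in 2 overlapping windows, and no matches to different motifs overlapped. Among all 32851 windows of this length, 1.63% held a CArG box, 0.0183% held at least 2, 14.9% held CCGGAA and 3.19% a MEF2 element. The matches describe letters in these windows and show no binding.

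Of the 14 tested member probe sets, 6 were lower in mutants than in controls over both treatments and 0 were higher, where called means an adjusted p under 0.05 in limma. Over all 11102 probe sets tested, 9.47% were called in this comparison. The 6 stood for 2 genes, Srf and Mef2c, and the 5 probe sets of Mef2c measure 1 gene and are not independent. The median change of the 14 was -0.07 on the log2 scale, against -0.01 over all probe sets tested. After saline 5 members were called, all lower, against 2.98% of all probe sets, and after cocaine again 5, all lower, against 4.19%.

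**Figure D1:**
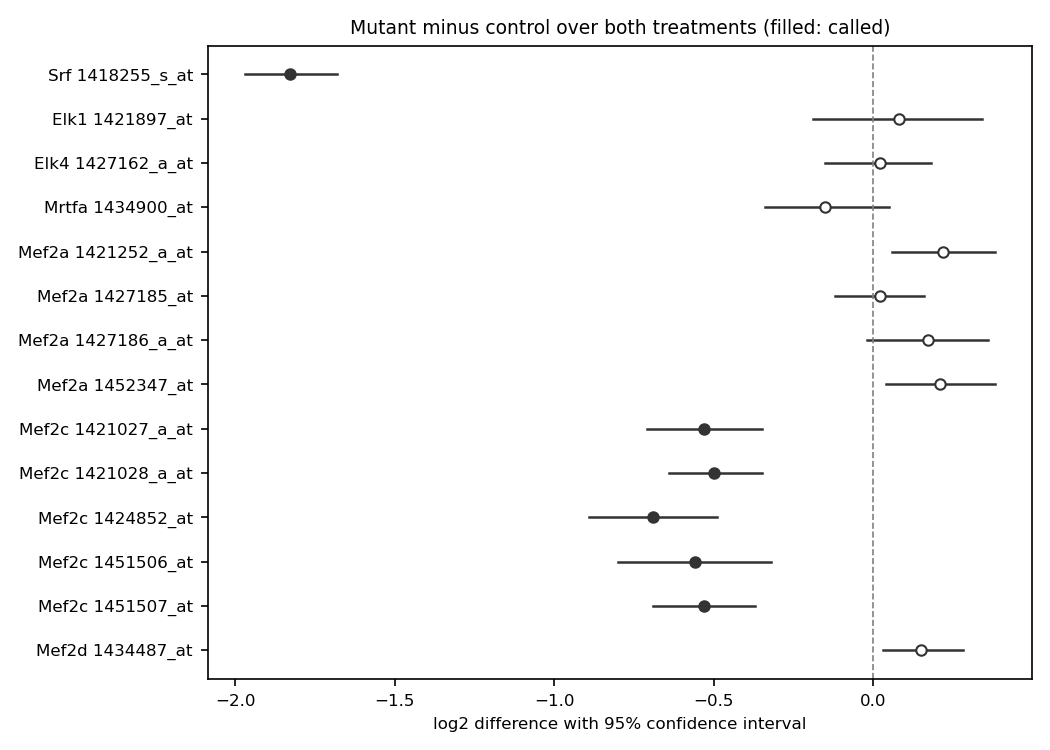
Mutant minus control over both treatments for the 14 tested member probe sets, as log2 differences (x axis) with their 95% confidence intervals as bars. Filled points passed limma's test and open points did not. The Srf point lies at -1.83, the 5 Mef2c points lie between -0.69 and -0.50, and the other 8 lie between -0.15 and 0.22.

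Srf, the gene named in the series title, had the largest difference of the 14 tested probe sets. Its tested probe set (1418255_s_at) read 5.33, 5.46 and 5.49 in cocaine-treated mutants and 5.28, 5.27 and 5.01 in saline-treated mutants, against 7.13, 7.20 and 6.97 in cocaine-treated controls and 7.11, 7.21 and 7.18 in saline-treated controls (log2 signal). Every mutant array lay below every control array. The share of all probe sets so separated is not given, so this is a description. The level was 3.2-fold lower in mutants after cocaine (log2 difference -1.68, 95% interval -1.88 to -1.47) and 3.93-fold lower after saline (-1.97, -2.18 to -1.77). Signal remained in mutants; where the probes lie relative to the change in Srf is not given in the labels. In whole striatum fewer cells that express a gene and less RNA per cell cannot be told apart, here and for the genes that follow. The second Srf probe set (1418256_at) was below the filter. It read 2.67, 2.64 and 2.86 in cocaine-treated mutants and 2.79, 2.71 and 2.74 in saline-treated mutants, against 2.87, 3.46 and 2.89 in cocaine-treated controls and 2.98, 3.50 and 3.22 in saline-treated controls. The highest mutant array (2.86) lay just below the lowest control array (2.87), which at these signals is only a description. The difference was -0.42 (95% interval -0.69 to -0.15). It did not pass when all probe sets were tested without the filter (limma, adjusted p = 0.109).

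The genes whose signal followed Srf most closely over the 12 arrays were Wnt2, a secreted Wnt ligand, Gdpd5, a glycerophosphodiester phosphodiesterase, Actg1, a cytoplasmic actin, Doc2b, a calcium sensor of vesicle release, and Lrrtm1, a synaptic adhesion protein. The measure was the root mean square difference between mean-centred log2 signals, which was 0.237 for Wnt2 and 0.337 for Lrrtm1, the last of the 5, where Srf itself varied by 0.921 around its mean. Their own log2 differences between mutants and controls over both treatments were -1.63 for Wnt2, -1.27 for Gdpd5, -1.25 for Actg1, -1.22 for Doc2b and -1.44 for Lrrtm1.

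Among the ternary complex factors, Elk1 was read near the lower limit of detection by its tested probe set (1421897_at). It read 3.64, 3.88 and 4.03 in cocaine-treated mutants and 3.55, 3.68 and 4.07 in saline-treated mutants, against 3.65, 3.73 and 3.91 in cocaine-treated controls and 3.54, 4.09 and 3.48 in saline-treated controls. The groups overlapped, and mutants differed from controls by 0.08 over both treatments (SE 0.121, 95% interval -0.19 to 0.34, limma adjusted p = 0.761). The probe set passed the filter through 3 arrays just over 4, and its other probe set stayed at 2.93 to 3.38.

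Elk3, the factor also called Net, which represses transcription until it is phosphorylated, had 3 probe sets, all below the filter, at 2.60 to 3.63. The brightest (1448797_at) read 3.38, 3.40 and 3.46 in cocaine-treated mutants and 3.19, 3.42 and 3.63 in saline-treated mutants, against 3.17, 3.47 and 3.17 in cocaine-treated controls and 3.18, 3.18 and 3.14 in saline-treated controls. All 3 saline-treated mutant arrays lay above the saline-treated controls, while the cocaine-treated groups overlapped. How often groups separate in this way over all probe sets is not given, so the separation is a description. Its difference over both treatments was 0.19 (95% interval 0.02 to 0.37), not called without the filter (limma, adjusted p = 0.282).

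Elk4, the ternary complex factor also known as SAP-1, was the member that changed with cocaine. Its tested probe set (1427162_a_at) read 5.33, 5.30 and 5.32 in cocaine-treated mutants, against 4.76, 4.80 and 4.86 in saline-treated mutants. It read 5.08, 5.28 and 5.02 in cocaine-treated controls, against 4.73, 5.01 and 5.15 in saline-treated controls. As a description, the 2 mutant groups did not overlap, and the 2 control groups did. Elk4 was 1.43-fold higher after cocaine in mutants (log2 difference 0.51, SE 0.105, 95% interval 0.28 to 0.74, limma adjusted p = 0.0241), the 1 member called of 14, where 1.92% of all probe sets were called. In controls its difference was 0.16 (SE 0.105, 95% interval -0.06 to 0.39, adjusted p = 0.921).

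Over both genotypes Elk4 was 1.26-fold higher after cocaine than after saline (log2 difference 0.34, SE 0.0742, limma adjusted p = 0.0305), again the 1 member called, against 2.31% of all probe sets. The difference between the genotypes' responses was 0.35 (SE 0.148, 95% interval 0.03 to 0.67) and did not pass the test (adjusted p = 0.98), so a response particular to mutants was not shown. Mutants and controls differed by 0.19 after cocaine (95% interval -0.04 to 0.42), by -0.16 after saline (-0.39 to 0.07) and by 0.02 over both treatments (-0.15 to 0.18), none of them called.

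The Elk4 call was near its threshold. In mutants it was made in 6 of the 12 fits that each left out 1 array, with adjusted p-values of 0.00544 to 0.0995, and it was lost without any 1 of the 6 mutant arrays while the difference stayed between 0.49 and 0.54. Over both genotypes it was made in 3 of 12 fits (without cocaine-treated control 3 or saline-treated control 1 or 3), and both calls were lost when all probe sets were tested without the filter (adjusted p = 0.0651 in mutants and 0.0822 over both genotypes). The other 2 Elk4 probe sets were below the filter, at 1.62 to 1.65 and at 1.93 to 1.99 on all arrays, so the rise rests on 1 probe set. The genes closest to Elk4 in pattern were Prpf38a, a splicing factor (root mean square difference 0.11), Txnrd1, a thioredoxin reductase (0.11), and P4hb, a protein disulfide isomerase (0.114), where Elk4 varied by 0.218 around its own mean. Their differences between cocaine and saline over both genotypes were 0.39 for Prpf38a, 0.34 for Txnrd1 and 0.24 for P4hb on the log2 scale.

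**Figure D2:**
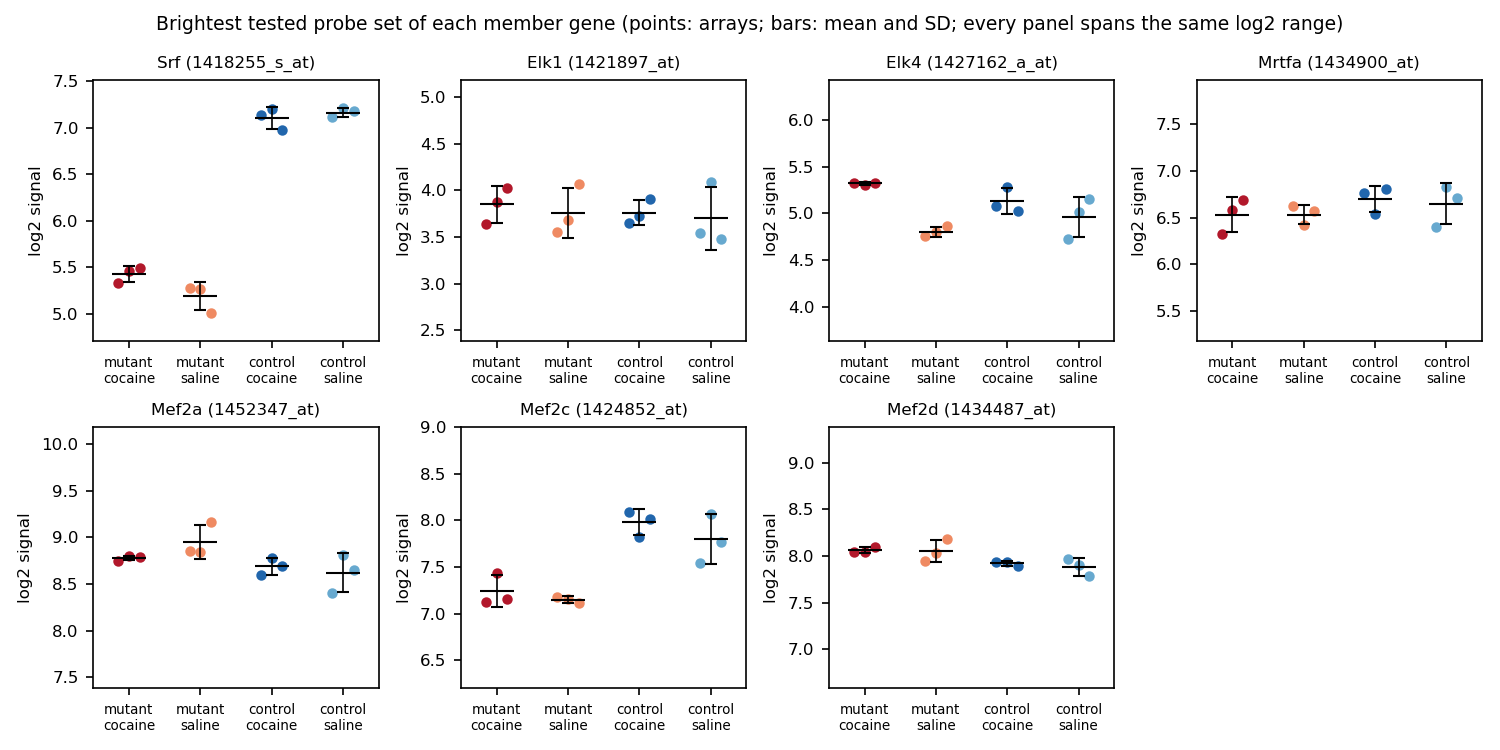
Log2 signal on each array (y axis, the same span in every panel) for the brightest tested probe set of each of the 7 tested member genes, by group, with bars for the mean and SD of 3 arrays. Srf and Mef2c are lower on all mutant arrays than on all control arrays, and the cocaine-treated mutants lie above the saline-treated mutants for Elk4.

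Of the 2 myocardin-related factors, Mrtfa was measured and Mrtfb was not. Mrtfa (1434900_at) read 6.32, 6.58 and 6.69 in cocaine-treated mutants and 6.62, 6.42 and 6.57 in saline-treated mutants, against 6.76, 6.54 and 6.81 in cocaine-treated controls and 6.40, 6.83 and 6.71 in saline-treated controls. The 4 groups overlapped. Mutants differed from controls by -0.15 over both treatments (SE 0.0893, 95% interval -0.34 to 0.05, limma adjusted p = 0.359). The Mrtfb probe set stayed at 2.22 to 2.60, too dim to tell whether the gene differed.

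Mef2c, a MEF2 gene known for limiting the number of excitatory synapses in brain, was lower in mutants on all 5 of its probe sets. The brightest (1424852_at) read 7.13, 7.44 and 7.16 in cocaine-treated mutants and 7.18, 7.16 and 7.11 in saline-treated mutants, against 8.09, 7.82 and 8.02 in cocaine-treated controls and 7.54, 8.07 and 7.77 in saline-treated controls. Its mean was 7.24 ± 0.17 and 7.15 ± 0.0348 in mutants after cocaine and saline, and 7.98 ± 0.14 and 7.80 ± 0.267 in controls after cocaine and saline (SD, n = 3 each). Every mutant array lay below every control array on each of the 5 probe sets, which measure 1 gene. The share of all probe sets with arrays so separated is not given, so this is a description. Averaged over the treatments, the brightest was 1.61-fold lower in mutants (log2 difference -0.69, SE 0.091, 95% interval -0.89 to -0.49, limma adjusted p = 0.000376).

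The other 4 Mef2c probe sets gave differences of similar size. For 1421027_a_at the 6 mutant arrays read 6.14 to 6.37 (median 6.21) and the 6 control arrays 6.38 to 6.93 (median 6.80), a difference of -0.53 (limma adjusted p = 0.00124). For 1421028_a_at they read 4.82 to 5.05 (median 4.94) in mutants and 5.21 to 5.57 (median 5.46) in controls, a difference of -0.50 (adjusted p = 0.000502). For 1451507_at they read 5.51 to 5.73 (median 5.60) in mutants and 5.83 to 6.32 (median 6.17) in controls, a difference of -0.53 (adjusted p = 0.000515). The standard error was the largest of the 5 for 1451506_at, with 5.35 to 5.57 (median 5.47) in mutants and 5.68 to 6.33 (median 6.13) in controls, a difference of -0.56 (SE 0.11, adjusted p = 0.00644). All 5 were called in each of the 12 fits over both treatments that left out 1 array, with differences between -0.75 and -0.46.

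The decrease in Mef2c was seen in both treatments. After cocaine the 5 differences lay between -0.73 and -0.43 and 4 were called, and after saline they lay between -0.64 and -0.49 and 4 were called. The exception in both was 1451506_at (limma adjusted p = 0.0888 after cocaine and 0.0631 after saline). Of the 3 saline-treated controls, replicate 1 was the lowest on 4 of the 5 probe sets, and it had the lowest weight of the 12 arrays when arrays were weighted by quality (0.421). These calls within a treatment changed with the arrays used: 1421027_a_at after saline was called in 2 of 12 fits that left out 1 array and 1424852_at in 10, and after cocaine 1421028_a_at and 1451507_at were each called in 8 and 1421027_a_at in 10. With the 5 probe sets averaged into 1 value, the difference was -0.54 after cocaine (adjusted p = 0.00336) and -0.58 after saline (adjusted p = 0.00292). Cocaine moved no Mef2c probe set by a called amount in either genotype.

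**Figure D3:**
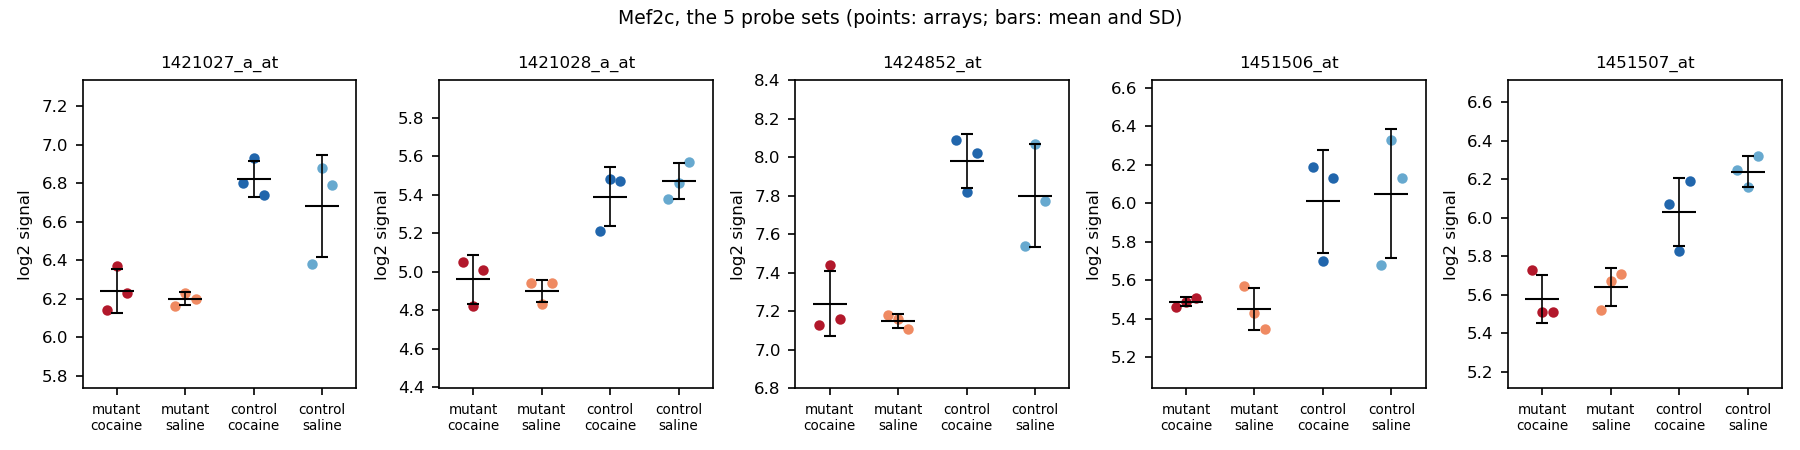
Log2 signal of the 5 Mef2c probe sets (y axes) on each array, by group, with bars for the mean and SD of 3 arrays. On every probe set the 6 mutant points lie below the 6 control points, on 1421027_a_at narrowly (6.37 against 6.38). Replicate 1 of the saline-treated controls is the lowest control of its group in 4 panels.

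The genes closest to Mef2c (1424852_at) over the 12 arrays were Gcnt2, a glycosyltransferase (root mean square difference 0.12), Ccnd2, a D-type cyclin (0.136), and Vcl, which encodes the focal adhesion protein vinculin (0.139), where Mef2c varied by 0.379 around its mean. Their log2 differences between mutants and controls over both treatments were -0.71 for Gcnt2, -0.67 for Ccnd2 and -0.60 for Vcl. For the genes closest to Srf, Elk4 and Mef2c alike, the choice by pattern fixes such differences, which are given as a description.

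Mef2a, a MEF2 gene of wide expression in adult brain, had 4 tested probe sets and none was called. On 1421252_a_at it read 5.76, 5.67 and 5.84 in cocaine-treated mutants and 5.82, 5.88 and 6.12 in saline-treated mutants, against 5.45, 5.68 and 5.78 in cocaine-treated controls and 5.58, 5.71 and 5.57 in saline-treated controls. On 1452347_at it read 8.75, 8.80 and 8.79 in cocaine-treated mutants and 8.85, 8.84 and 9.16 in saline-treated mutants, against 8.59, 8.78 and 8.69 in cocaine-treated controls and 8.40, 8.81 and 8.65 in saline-treated controls. On both, the saline-treated mutants lay above the saline-treated controls without overlap and the cocaine-treated groups overlapped. On 1427186_a_at and 1427185_at the saline-treated groups overlapped too. The share of all probe sets with groups so separated is not given, so the separation is a description and no evidence of a rise.

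The Mef2a differences over both treatments were 0.22 for 1421252_a_at (95% interval 0.06 to 0.38, limma adjusted p = 0.0806), 0.21 for 1452347_at (0.04 to 0.38, adjusted p = 0.125) and 0.17 for 1427186_a_at (-0.02 to 0.36, adjusted p = 0.274). The fourth, 1427185_at, differed by 0.02 (-0.12 to 0.16, adjusted p = 0.896). Its estimate was smaller than those of the others, but its interval overlaps theirs. Whether the probe sets differ from each other was not tested. After saline the 4 differences were 0.32, 0.33, 0.30 and 0.08 in the same order, with adjusted p-values of 0.141, 0.168, 0.269 and 0.778. After cocaine they were 0.12, 0.09, 0.04 and -0.04. The remaining Mef2a probe set was below the filter, at 3.14 to 3.52.

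Mef2d, which with Mef2a is known for activity-dependent control of synapse number in neurons, read 8.04, 8.04 and 8.10 in cocaine-treated mutants and 7.95, 8.03 and 8.18 in saline-treated mutants on its tested probe set (1434487_at). The controls read 7.94, 7.93 and 7.89 after cocaine and 7.97, 7.90 and 7.78 after saline. The cocaine-treated mutants lay above the cocaine-treated controls by a small margin and the saline-treated groups overlapped. That separation is likewise a description. The difference over both treatments was 0.15 (SE 0.0567, 95% interval 0.03 to 0.28) and was not called (limma adjusted p = 0.112); it was called when arrays were weighted by their quality (0.18, adjusted p = 0.0453). The second Mef2d probe set stayed at 3.02 to 3.35.

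For the 8 tested probe sets of Elk1, Elk4, Mrtfa, Mef2a and Mef2d, the 95% intervals of the difference between mutants and controls over both treatments reached from -0.34 to 0.38 on the log2 scale. The highest of these upper bounds, that of Mef2a 1452347_at, corresponds to a 1.31-fold higher level in mutants. After saline alone the highest upper bound among members not called was 0.57 and after cocaine alone 0.46; none of these intervals is adjusted for the number of probe sets. At an unadjusted p under 0.05 over both treatments, 9 of the 14 members passed, where 2602 of all 11102 probe sets did. The 9 were the 6 that were called and 3 higher ones, 2 of Mef2a and that of Mef2d. The 10 dim probe sets differed by -0.42 to 0.19, with 0 called by limma without the filter and a smallest adjusted p of 0.109; at these signals GCRMA compresses differences.

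Cocaine called 0 of the 14 members in controls, where 0.450% of all probe sets were called. At an unadjusted p under 0.05, 0 members passed, where 704 of all 11102 probe sets did. The 95% intervals of these 14 differences reached from -0.44 to 0.46. Srf differed by 0.24 between cocaine and saline in mutants (95% interval 0.04 to 0.44, limma adjusted p = 0.342). In controls it differed by -0.06 (-0.26 to 0.14). The mutant arrays did not overlap, but the difference was not called, so their separation is a description. The difference between the genotypes' responses was called by limma for 0 of 14 members, against 0.0721% of all probe sets. Srf (0.30, 95% interval 0.01 to 0.59) and Elk4 were the 2 members with an unadjusted p under 0.05 in it, where 553 of all 11102 probe sets had one. Each mutant or control group enters more than 1 of these comparisons.

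**Figure D4:**
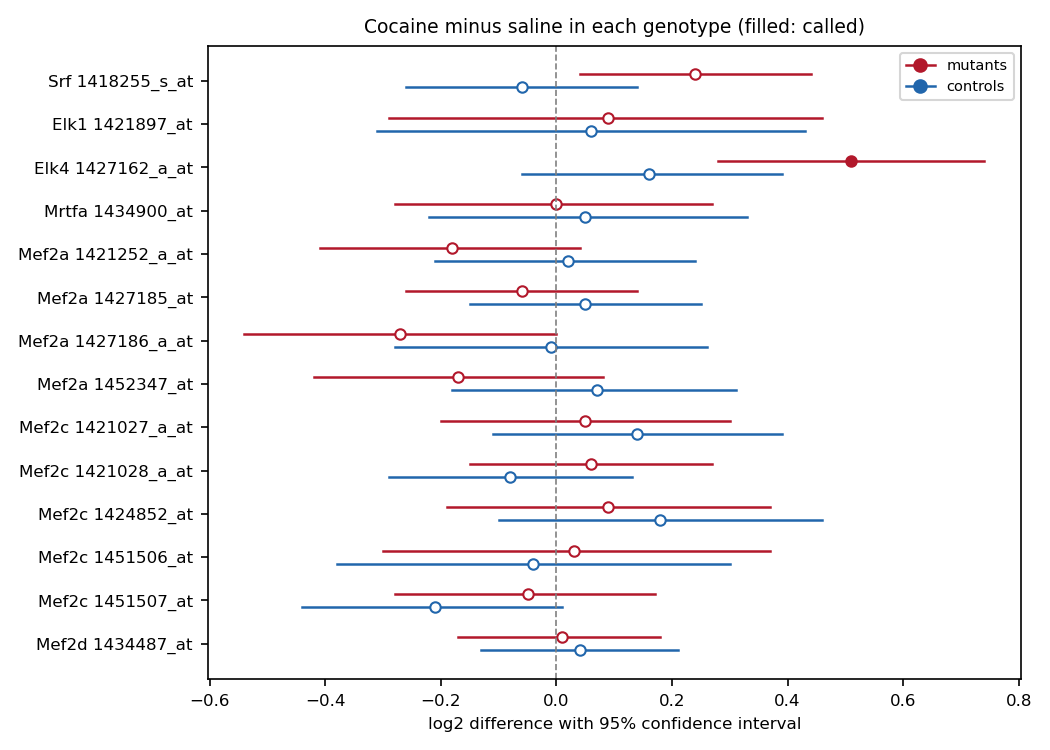
Cocaine minus saline for the 14 tested member probe sets in mutants (upper point of each pair) and controls (lower point), as log2 differences (x axis) with 95% confidence intervals as bars. The 1 filled point, the 1 call, is Elk4 in mutants at 0.51; the other intervals in both genotypes lie between -0.54 and 0.46.

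Genes that act with the members were grouped in lists, with the brightest probe set of each gene. Of all 11102 probe sets tested, 4.41% were called higher and 5.05% lower in mutants over both treatments. For cocaine over both genotypes 2.31% were called, and the median change was -0.01 in both comparisons. The shares within a treatment or genotype are given above. These shares count probe sets, while the lists hold 1 probe set per gene. Of the other MADS box genes and SRF cofactors, 6 were on the array and 1 was tested, the SRF-binding homeodomain protein gene Hopx, at -0.18 in mutants against controls over both treatments (limma adjusted p = 0.322). Mef2b and Myocd, which encode the remaining MEF2 protein and myocardin, were below the filter, as were Fhl2, Nkx2-5 and Gata4.

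The list for regulation of the ternary complex factors held genes of the ERK pathway, which phosphorylates them, and the calcineurin gene Ppp3ca. Of its 6 tested genes, the MAP kinase phosphatase gene Dusp1 was higher in mutants over both treatments (0.95, limma adjusted p = 0.00612). The ERK kinase gene Map2k1 was lower (-0.28, adjusted p = 0.0405, called in 3 of 12 fits that left out 1 array). The median of the 6 was -0.19. Ppp3ca read -0.18 on its brightest probe set (adjusted p = 0.0638) and was called lower on its other 2. Cocaine raised 2 of the 6 over both genotypes, Dusp1 (2.40, adjusted p = 5.56e-06) and the ERK phosphatase gene Dusp6 (1.43, adjusted p = 2.39e-06). Of 6 tested ETS genes outside the ternary complex factors, 2 were higher in mutants and 0 lower, with a median of 0.17. These were Etv3, a repressor (0.40, adjusted p = 0.00676), and Elf2 (0.38, adjusted p = 0.0245, lost in 4 of 12 fits that left out 1 array), while Ets2 read -0.14. None of these 6 was called for cocaine over both genotypes.

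Of 11 tested genes that regulate MEF2, 1 was called in mutants against controls over both treatments, near the share of all probe sets (9.47%). It was the class IIa histone deacetylase gene Hdac5, which was higher (0.36, limma adjusted p = 0.0118). Ppp3ca belongs to this list too, not called on its brightest probe set and lower on its other 2 (-0.32, adjusted p = 0.00171, and -0.27, adjusted p = 0.0322). The median of the 11 was -0.05, and none was called for cocaine over both genotypes. Of 7 tested neuronal MEF2 target genes, 3 were higher in mutants and 1 lower, with a median of 0.20. The higher ones were the nuclear receptor gene Nr4a1 (1.01, adjusted p = 2.95e-05), the postsynaptic gene Arc (0.83, adjusted p = 0.0205) and the potassium channel gene Kcna1 (0.61, adjusted p = 0.00563). The lower one was the protocadherin gene Pcdh10 (-0.51, adjusted p = 0.00637), which was not called on another tested probe set (-0.26, adjusted p = 0.0756). Lgi1, which encodes a secreted synaptic protein, read 0.20 (adjusted p = 0.102). Nr4a1 and Arc stand also in the list of genes bound by SRF, and Arc lost its call without any 1 of 3 arrays. Cocaine raised 3 of the 7 over both genotypes, Arc (3.15), Nr4a1 (2.58) and the AP-1 gene Jun (1.16, adjusted p = 0.00547).

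Of 9 tested immediate early genes bound by SRF, 3 were higher and 3 lower in mutants than in controls after cocaine. After saline 2 were higher and 0 lower, and over both treatments 5 were higher and 3 lower. Those higher over both treatments were Fos (1.27, limma adjusted p = 0.0121), Nr4a1 (1.01), Fosb (0.92), Arc (0.83) and Junb (0.80). The lower were Egr2 (-2.13), Egr4 (-1.20) and Egr1 (-0.46), and Mcl1 was not called (-0.08). Cocaine raised 6 of the 9 in mutants and 9 in controls. Over both genotypes it raised all 9, among them Fos by 3.90 and Junb by 2.87. The difference between the genotypes' responses was called for 2, Egr2 and Egr4, both zinc finger factors. The mean log2 signal of Egr2 was 3.77 after cocaine and 3.83 after saline in mutants, against 7.87 after cocaine in controls, where cocaine raised it by 3.88 (difference in response -3.94, limma adjusted p = 2.63e-08). That of Egr4 was 2.11 after cocaine and 2.11 after saline in mutants, against 4.73 after cocaine and 1.90 after saline in controls (-2.82, adjusted p = 7e-05). Egr4 passed the filter only through the cocaine-treated controls, so its part in these counts is a description. The mean of Egr2 lay clearly over the filter level of 4 only in the cocaine-treated controls. Its part in these counts, with the size of its difference in response, is therefore a description too. The mean log2 signal of Fosb was over 4 only after cocaine, at 5.71 in mutants and 4.40 in controls, against 2.76 and 2.22 after saline. Its part in these counts is likewise a description.

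Of 18 tested actin and contractile genes bound by SRF, 3 were higher and 7 lower in mutants, with a median of -0.12, and 0 were called by limma for cocaine over both genotypes. The cytoplasmic actin gene Actg1 (-1.25), the integrin subunit gene Itga5 (1.25) and the actin cross-linker gene Flna (-1.20) were among the called. So was Tpm1, a tropomyosin, at -1.18, with -0.25 on another tested probe set (limma adjusted p = 0.048). The brightest not called was Tpm3, at 0.04.

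Markers of the cell types in the dissected tissue were read beside these changes. Of 7 tested markers of medium spiny neurons, the main striatal cell, Pdyn (log2 difference 2.20 between mutants and controls over both treatments), Tac1 (0.35) and Penk (0.19) were higher and Rgs9 lower (-0.33). Not called were Pde10a (0.29), Drd2 (0.14) and Ppp1r1b (-0.23, limma adjusted p = 0.0511), and the median of the 7 was 0.19. The mean log2 signal of the 7 was 9.82 to 9.88 in cocaine-treated mutants and 9.80 to 9.94 in saline-treated mutants. In controls it was 9.44 to 9.51 after cocaine and 9.44 to 9.52 after saline. Pdyn, with the largest difference, weighs most in these means, so they do not describe the 7 markers alike. Limma called 0 of 4 interneuron, 0 of 9 astrocyte, 0 of 6 oligodendrocyte, 0 of 8 microglia and 0 of 7 endothelial and mural markers between mutants and controls. For microglia, which express Mef2c, mean signals were 6.41 to 6.55 in cocaine-treated mutants and 6.54 to 6.65 in saline-treated mutants, against 6.54 to 6.72 in cocaine-treated controls and 6.51 to 6.75 in saline-treated controls. Endothelial and mural cells gave 5.33 to 5.50 in cocaine-treated mutants and 5.28 to 5.56 in saline-treated mutants, against 5.19 to 5.57 in cocaine-treated controls and 4.68 to 5.74 in saline-treated controls, with Pecam1, Kdr, Tek and Cdh5 below the filter. The 4 cortical projection neuron markers on the array, Neurod2, Neurod6, Tbr1 and Rasgrf2, read 1.53 to 3.63 on every array. The part of cell makeup in the Mef2c difference was not tested.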

How the data were processed

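The authors deposited log2 signals, 1 for each probe set and array; GCRMA and R 2.4.1 are named in the submitters' processing notes. Neither the log base nor GCRMA's options are given there, and log2 was read from the range of 1.26 to 13.14. Array medians were 3.75 to 3.78, and arrays correlated at 0.986 to 0.993 within and 0.976 to 0.990 between groups. Groups came from the titles. Gene symbols came from the platform annotation and were checked through Entrez identifiers, which changed 0 of them (20393 probe sets with 1 symbol, 691 with several, 1606 with none).

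Limma 3.58.1 in R 4.3.3 was fitted to all 12 arrays with 4 group means, empirical Bayes moderation and p-values adjusted by Benjamini-Hochberg over all 11102 that passed the filter (64 control probe sets left out); tests are two-sided and every adjusted p is limma's. The code was tested on simulated data. P-values rest on 1 spread for each probe set, pooled over the 4 groups of 3 arrays and moderated. They do not rest on the groups compared alone, and the number of arrays limits the precision. Members and lists were chosen with earlier results of these data known. The results of 1 list are not reported here. Named from each list were up to 4 called genes with the largest change and the brightest gene not called. For the immediate early genes, all that were called over both treatments are named. The genes closest in pattern to Srf (5) and to each other called member (3) are named too. A gene is read from its brightest probe set. Alternatives were no filter, a filter at 6, array weights, a trended prior, repeated quantile normalization, a replicate block, averaged probe sets and leaving out each array.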

Additional observations from a re-analysis of the deposited data

How the results depend on the processing

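Over both treatments, 6 members were called between mutants and controls in each fit that left out 1 array, 7 with array weights, when Mef2d was added, and 5 with a filter at 6, under which Mef2c 1421028_a_at was not tested. Without the filter, the members called between mutants and controls were 3 after cocaine and 3 after saline (5 each with it), and those called for cocaine were 0 in mutants and 0 over both genotypes; with a filter at 6, where Elk4 was not tested, these last 2 counts were also 0 and 0. With array weights, 708 probe sets were called between mutants and controls after cocaine and 88 for cocaine in controls; without the filter, 5 were called for the difference in response. Elk4 between mutants and controls over both treatments changed sign with array weights (-0.03).

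Leaving out 1 array at a time gave 3 to 6 members between mutants and controls after cocaine (3 without cocaine-treated mutant 2 or 3 or cocaine-treated control 3), 3 to 6 after saline (3 without saline-treated mutant 3 or control 2), and 0 to 1 for cocaine in mutants and over both genotypes. Over all probe sets the ranges were 253 to 539 between mutants and controls after cocaine (253 without cocaine-treated mutant 1, 264 without control 3, 303 without control 2 and 306 without control 1), 216 to 350 after saline (216 without saline-treated mutant 3 and 219 without control 3), 128 to 239 for cocaine in mutants (128 and 138 without cocaine-treated mutant 1 and 2) and 5 to 8 for the difference in response. Values near 0 changed sign in some of these fits: Elk4 over both treatments (-0.04 to 0.06), Mef2a 1427185_at over both treatments (-0.02 to 0.05) and after saline (-0.01 to 0.15), Mef2a 1427186_a_at after cocaine (-0.02 to 0.10), and Srf for cocaine in controls (-0.11 to 0.00). Of 54 further member values, 29 changed sign somewhere, none over 0.14 in size and 0 called by limma. Among the other named genes, Fos, Map2k1, Elf2 and Arc between mutants and controls and Jun for cocaine lost their calls without the filter. The differences of Fosb, Junb and Egr1 between mutants and controls were not followed in these fits. The cause of these shifts was not tested.

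Replicate numbers did not pair the arrays: deviations of 18 same-numbered pairs correlated at -0.145 to 0.116, and 2 of 12 arrays matched their own number best. With the number as a replicate block, member counts did not change, and the probe sets called were 387 after cocaine, 286 after saline and 907 over both treatments between mutants and controls, 178 in mutants, 46 in controls and 216 over both genotypes for cocaine, and 7 for the difference.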
